A study of Homo sapiens with 12 samples.

Results

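DMD tile 31 is a fragment of dystrophin that was placed in a library of domain pairs as a control, and it was chosen by its high values in the activation screen, which are therefore given here as a description without a test. Its members were all ordered pairs whose first or second domain carried the name of that tile, and all 199 possible pairs were found among the 9983 members with reads. The tile stood first in 100 members and second in 100 members, with 1 member (tile 31 + tile 31) counted in both. In 40 members the partner was another of the 21 control domains, and in the other 158 it was a domain that is no control. The files name 11 DMD tiles and 10 random sequences as controls, whereas the labels state 10 DMD tiles among 20 controls, and which tile lies outside that number is unstated in the sources used here.

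All groups were K562 cells, an established human chronic myeloid leukaemia line, with a reporter plasmid, into which lentivirus brought fusions of the doxycycline-dependent DNA-binding protein rTetR to a pair of domains. The activation screen used K562 + pDY032 with 2 days of 1000 ng/mL doxycycline, and the repression screen used K562 + pJT039 with 5 days. The memory screen, which the labels call unused, had the same 5 days on K562 + pJT039 and then 5 days without the drug. In every group blasticidin selection ran for 7 days and doxycycline began on day 8 after infection. Each screen had 2 replicates, infected apart from each other at roughly 600 cells for each member, and each replicate gave a bound and an unbound fraction of the same culture. Bound was read as the fraction with the reporter ON; the sources used here do not say how the fractions were obtained. Every member sat on the same rTetR anchor in a cell line that is not muscle, and the 199 pairs share the tile, so they are not independent replicates of it.

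Dystrophin links the actin cytoskeleton of muscle fibres to the membrane, and fragments of it serve in recruitment assays as filler with no intended effect on transcription. In such an assay rTetR carries its fused domains to the reporter promoter while doxycycline is present. Activation domains recruit coactivators and switch on a silent reporter, silencing domains such as KRAB recruit corepressors and switch off an active one, and a memory period asks whether a state outlasts the recruitment. The DMD gene lies on chromosome X from 31119222 to 33339388 (assembly GRCh38). The residues that tile 31 covers, and its sequence, were not used here.

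The libraries held 612999 (activation, unbound, replicate 2) to 55121999 read pairs (activation, bound, replicate 1). The median count per tile 31 member ran from 29 to 3397 in those same libraries, and at most 2 of the 199 members had no read in any library. A pair score was log2 of bound over unbound reads, with a floor of 5 reads, minus the median of pairs of 2 controls other than tile 31. Scores were used for pairs that in each replicate had 5 or more reads in a fraction and 50 or more in the sum of both, which left 194 members in activation and 191 in each of repression and memory. Positive scores mean a larger bound share than control pairs have, and n = 2 replicates throughout. P-values rest on the spread between replicates, which edgeR pools over the screens and which edgeR and limma partly share across features.

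Beside the other controls, tile 31 gave a larger bound share in the activation screen. Its 40 pairs with another control held 348.47 reads in replicate 1 and 273.66 in replicate 2 of the bound fraction per 1000 reads of all other control pairs. In the unbound fraction the same ratio was 72.02 and 71.86. Bound exceeded unbound in both replicates, and the fitted difference was 2.14 in log2 (SE 0.14), or 4.40-fold. The 20 other controls, treated in the same way, had a median of 0.02 and ran from -0.22 (DMD tile 357) to 0.40 (DMD tile 255), so tile 31 stood apart from the remaining 10 DMD tiles as well as from the random sequences. Among all 100 domains, 5 had a higher value than tile 31. Because these values selected the tile, they support nothing further.

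The activation score of tile 31 depended on which control stood beside it. Its pairs with controls had a mean score of 2.06 in replicate 1 and 1.63 in replicate 2 (1.85 ± 0.30, SD, n = 2). Of the 40 pairs, 33 were above 0 in both replicates and 3 were below 0 in both. In 28 of them the mean score was above 1.10, the 99th percentile of 376 pairs of other controls. The highest control partner was random control 411, which scored 4.62 and 3.66 behind the tile and 4.14 and 3.49 in front of it. Random control 124 followed, with 3.83 and 3.28 behind the tile and 3.05 and 3.32 in front. The highest DMD partner was tile 251, with 3.57 and 3.49 behind tile 31 and 3.14 and 2.65 in front. In replicate 2 its pairs had 6 unbound reads behind tile 31 and 5 in front, near the floor. All values of these 3 partners were above 2.

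With 4 controls, random control 257 (0.11), random control 89 (0.06), DMD tile 130 (-0.04) and DMD tile 297 (-0.30), the activation scores of tile 31 averaged between -0.30 and 0.11 over both orders. Random control 89 gave 0.11 and 0.08 behind the tile and -0.04 and 0.09 in front of it. DMD tile 297 gave -0.09 and -0.10 behind it and -0.98 and -0.03 in front. DMD tile 130 gave 1.19 and 0.79 behind the tile and -1.26 and -0.86 in front, so its 2 orders lay on opposite sides of 0. Random control 257 gave 0.78 and -0.46 behind the tile and 0.26 and -0.14 in front. The pair random control 21 + tile 31 had 5.36 in replicate 1 and 0.21 in replicate 2, so its replicates disagree. DMD tile 357 also differed by order, with 0.32 and 0.07 behind tile 31 and 2.76 and 2.24 in front of it.

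Paired with itself, tile 31 scored 1.79 and 2.38 in activation, within the range of its pairs with other controls. In repression the same pair scored -3.45 and -3.06 and was called lower by edgeR (log2 -3.28), and both values lay below the mean of the tile's pairs with other controls. In memory it scored 2.80 and 0.05, so the replicates disagree, and it was not called (edgeR log2 1.40, adjusted p = 0.171).

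Partner domains that are no control were grouped by their own effect beside the 20 other controls, as activating (at least 1 in log2 in activation), silencing (at most -1 in repression), dual (both) or neither. The groups held 5, 36, 6 and 32 domains. To set the tile apart from its partner, each pair was compared with the median score of the same partner in the same position when the other controls took the tile's place, here called the swap difference. Over the 64 pairs with partners of neither class, the median activation score was 1.85 against a baseline of 0.05, the median swap difference was 1.64, and 61 of the 64 were positive in both replicates. The median swap difference with control partners was 1.98.

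Activating partners gave the highest activation scores with the tile. The SH3 domain of ANM2, an arginine methyltransferase also called PRMT2, scored 5.34 and 4.36 behind tile 31, against a baseline of 1.21 with other controls. In front of the tile it scored 5.20 and 4.31, against 0.47. The median score over 10 pairs with activating partners was 3.20 and the median swap difference 1.67. Pairs of tile 31 with domains of neither class came next among the highest. Tile 31 + STAT2 STAT2_C, from a transcription factor of interferon signalling, scored 5.12 and 4.12 against a baseline of 0.61. The silencer tile ENSG00000205571 tile 13 scored 4.71 and 4.02 in front of the tile, against 0.47.

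With the 6 dual partners the tile's swap differences were mostly not positive. The median was -0.57 over 12 pairs, which had a median score of 2.92 against a baseline of 3.88. The transactivation domain of MYBA, a relative of the oncoprotein MYB, scored 2.45 and 2.65 in front of tile 31, where its median with other controls was 4.62. FOXO3 FOXO-TAD, from a forkhead factor of stress responses, scored 2.62 and 1.66 behind the tile, against 3.95. NCOA2 Nuc_rec_co-act, from a nuclear receptor coactivator, scored 2.79 and 2.73 in front of it, against 4.39. Behind the tile, however, NCOA2 scored 3.58 and 3.82, against 3.58. SMCA2 QLQ, from a chromatin remodelling ATPase, differed from these, with swap differences of 2.19 behind the tile and 2.22 in front. Of the 12 pairs, 2 had positive and 6 had negative swap differences in both replicates.

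Beside silencing partners the activation swap differences of tile 31 ran from -0.81 to 2.59. Over 67 pairs the median score was -0.70 against a baseline of -0.78, the median swap difference was 0.10, and 23 were positive and 12 negative in both replicates. The highest was with KMT2B zf-CXXC, from a histone H3 methyltransferase, which scored 1.38 and 1.70 behind the tile against a baseline of -1.05. Its replicate 2 value was set by the floor of 5 reads, since that pair had 1 unbound read there. In front of the tile it scored 1.96 and 1.31, against -0.41. HXA13 Homeodomain, from a developmental transcription factor, scored 1.30 and 0.83 behind the tile against -1.41, with 5 unbound reads in replicate 2. SSX2 SSXRD scored 1.68 and 2.82 behind the tile against 0.02. In front of the tile, however, SSX2 scored 0.44 and -0.93. The lowest activation scores of all tile 31 members came from this group. KRAB variant M0QYP0 + tile 31 scored -1.77 and -1.91 against a baseline of -1.11. CDYL2 Chromo + tile 31, with a chromodomain that binds methylated histone H3, scored -2.21 and -1.31. SUMO3 Rad60-SLD + tile 31, with a small protein modifier, scored -1.46 and -1.81. Tile 31 + ENSG00000025156 tile 13 scored -1.51 and -1.66, and KRAB variant Q3KP31 + tile 31 scored -2.09 and -0.96.

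In the repression screen, whose values did not choose the tile, tile 31 had a smaller bound share than other controls. Its pairs with another control held 58.78 reads in replicate 1 and 47.68 in replicate 2 of the bound fraction per 1000 reads of other control pairs, against 135.76 and 136.61 in the unbound fraction. The 2 fractions did not overlap. The effect was -1.37 in log2 (SE 0.14, 95% interval -1.67 to -1.08, 2.59-fold lower, edgeR adjusted p = 7.95e-07). Of all 100 domains, 57.0% were called lower in this test, 36 of them below tile 31, and all 36 were no controls. None of the 20 other controls was called by edgeR (0 at an unadjusted p of 0.05, and 0 by DESeq2), and they ran from -0.26 (DMD tile 255) to 0.23 (DMD tile 251). Scaled by total counts instead, tile 31 stood at 0.54 and the median of the other controls at 1.88. With TMM over all members they stood at 0.63 and 1.97. The sign thus turned, and tile 31 was called higher under both (edgeR adjusted p = 0.00064 and 0.000494). Scaling moves all domains of a screen alike. The distance of 1.34 below the controls' median is therefore the same under each scaling by construction and tests nothing.

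Single pairs mostly had the same sign. Of 39 pairs of tile 31 with another control, 31 scored below 0 and 2 above 0 in both replicates, and the mean score was -1.17 and -1.51 (-1.34 ± 0.24, SD, n = 2). EdgeR called 24 of the 39 lower and none higher, while of 376 pairs of other controls it called 2 lower and 1 higher (0.798%). The lowest control partner was DMD tile 357, with -3.24 and -4.31 behind tile 31 and -3.32 and -3.08 in front of it. DMD tile 131 scored -2.26 and -3.83 behind the tile and -1.61 and -2.92 in front, and random control 385 scored -2.41 and -3.24 behind it and -2.03 and -2.11 in front. All 3 were low in both orders and both replicates.

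Of the 4 controls with the lowest activation averages beside tile 31, random control 257 averaged -0.94 in repression, and the other 3 had no pair called. Random control 257 scored -1.17 and -1.88 behind the tile, where it was called lower, and -0.43 and -0.27 in front, where it was not. Random control 89 gave -0.08 and -0.27 behind the tile and -0.13 and 0.47 in front. DMD tile 297 gave -0.11 and 0.06 behind it and -0.15 and 0.15 in front. DMD tile 130 gave -0.24 and 0.41 behind it and -0.07 and 1.25 in front. The controls did not rank alike in both screens, however. DMD tile 357 had the lowest mean of both orders in repression (-3.48) but only 1.35 in activation, whereas DMD tile 171 averaged 2.44 in activation and -0.49 in repression. Over the 39 pairs with a score in both screens, activation and repression scores had r = -0.38 and rho = -0.41, a description of pairs that share the tile and its libraries.

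Over all partners, 150 of the 191 tile 31 members tested in repression were called lower by edgeR (78.5%), where 58.0% of all 9062 members were. None was called higher (0 at an unadjusted p of 0.05, and 0 by DESeq2), where 0.298% of all members were. For the other controls the share of members called lower ran from 10.6% to 56.9%. With total counts the tile's split was 69 lower and 23 higher, against 2812 and 2603 of all 9062 members. With TMM over all members it was 68 lower and 27 higher, against 2764 and 2795. The lowest members paired the tile with silencing domains. Tile 31 + ENSG00000102098 tile 62 scored -3.77 and -7.78 (log2 -5.55, SE 1.06), and the reverse order scored -4.04 and -6.19. Tile 31 + YAF2 YAF2_RYBP, from a Polycomb complex subunit, scored -4.29 and -6.03. KRAB variants Q3KP31, M0QYP0 and P21506 in front of the tile had log2 values of -5.13, -5.04 and -4.98. Tile 31 + ATF1 bZIP_1, the leucine zipper of a CREB relative, had -5.07 (SE 1.61) on 1 bound read in 1 replicate, so its size is poorly fixed.

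Swap differences in repression were called most often with partners of neither class. Limma called 61 of 190 swap differences lower, against 20.7% of the 17900 tested over all domains, and 1 higher, against 2.68%. At an unadjusted p of 0.05 the counts were 93 and 6. For each other control in the tile's place, 0 to 7 were called lower and 0 to 51 higher, the most for random control 89. Over these 20 controls, 26 of 3644 were called lower and 114 higher. With partners of neither class 41 of 64 swap differences were called lower (median -2.39, score -2.56 against a baseline of -0.07), and none of the 64 was positive in both replicates. With control partners 13 of 39 were called (median -1.38), and with activating partners 3 of 9 (median -1.93).

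The lowest called swap differences included partners from signalling and chromatin proteins. Tile 31 + IKKA IKKbetaNEMObind, from a kinase of the NF-kappaB pathway, scored -3.36 and -4.19 where its baseline with other controls was 0.28, a swap difference of -4.05 (SE 0.40). WWP2 WW + tile 31, from a ubiquitin ligase, scored -3.56 and -4.42, a difference of -4.03 (SE 0.42). Tile 31 + SMRC2 Myb_DNA-binding, from a SWI/SNF subunit, scored -3.53 and -3.43, a difference of -3.95 (SE 0.33). ABL1 SH3_1, from a tyrosine kinase, and CACO1 Zn-C2H2_12 followed behind the tile at -3.70 and -3.63. Adjusted p from limma was 0.0197 to 0.0270 for these 5. SH3 and WW domains bind proline-rich peptides. A list of 8 of them (ABL1, ANM2, APBB1, BTK, ITCH, KIBRA, WBP4 and WWP2), which takes names ending in SH3_1 or WW, had 15 of 16 members called lower, 11 of 16 swap differences called lower and a median of -2.80. Their median activation swap difference was 2.13, and 15 of 16 were positive in both replicates there. All of them but ANM2 and KIBRA are of neither class. Over all 64 pairs with that class, 49 members and 41 swap differences were called lower in repression, with a median of -2.39. In activation 61 of those 64 were positive in both replicates, with a median of 1.64. BIN1 SH3_9, which the list of SH3 and WW domains leaves out, had both members called lower. Its swap differences were -1.16 behind the tile and -1.22 in front, neither called.

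Other lists of partners, counted in the same way, follow. Over all members 58.0% were called lower in repression, and over all tile 31 members 78.5%. Swap differences were called lower in 20.7% over all domains and in 32.1% for tile 31, and called higher in 2.68% over all domains. Of 20 members with coactivators, transcription factors and remodellers, edgeR called 15 lower, limma called 5 swap differences lower and the median was -1.41 (1.27 in activation). Both NIZP1 domains, from a zinc finger protein that binds the methyltransferase NSD1, had all 4 members called lower, 2 swap differences called and a median of -1.95. Of 44 members with silencer tiles, 39 were called lower, with 12 swap differences lower, 1 higher and a median of -0.31. Of 8 members with CBX1, CHD3, MPP8 and SUMO3, the list of HP1, chromodomain and SUMO proteins, 6 were called lower, 1 swap difference was called and the median was 0.05. The chromodomain of CDYL2 is not on that list, and its members were both called lower, with swap differences of -0.06 and -0.05. All 3 tested members with PCGF2 and YAF2, the part of the Polycomb list found among short nuclear domains, were called lower. No swap difference was called for them, with a median of -1.18. The list also names RYBP, SCML2 and CBX7. Lists by protein name took short nuclear domains only, so silencer tiles, which keep gene identifiers, could not enter them. Tiles of these 3 proteins were therefore not looked for. The Polycomb protein SCMH1 is not on that list, and its members were both called lower, with swap differences of -0.85 and -0.76 that were not called. The list of short nuclear domains, which overlaps these, had 76 of 97 members and 34 swap differences called lower.

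With silencing partners the swap differences in repression went both ways, from -2.90 to 1.67, with 23 negative and 19 positive in both replicates. Over 66 pairs the median score was -3.71 against a baseline of -3.48, the median swap difference was -0.07, and 4 were called lower and 1 higher. Those called lower were ENSG00000102098 tile 62 + tile 31 (-2.87), tile 31 + ATF1 bZIP_1 (-2.35), CREM bZIP_1 + tile 31 (-2.06) and tile 31 + ZN777 DUF3669 (-1.85). The pair called higher was ENSG00000025156 tile 13 + tile 31, at -1.48 and -2.14 against a baseline of -3.48, a difference of 1.67 (SE 0.34, limma adjusted p = 0.0467). The 6 pairs with KRAB variants, all called lower as members, had a median swap difference of 0.21 and none called. None of 12 swap differences with dual partners was called, with a median of -0.85, and 10 were negative in both replicates. The 72 silencing members had median bound counts of 463 and 123 reads in the 2 replicates, against 1710 and 770 for the 40 control members, and the part of depth in these swap differences was not tested.

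In the memory screen no difference was called with the libraries scaled on control pairs. Pairs of tile 31 with another control held 85.39 and 89.95 reads per 1000 reads of other control pairs in the bound fraction and 93.54 and 91.26 in the unbound fraction. The effect was -0.13 in log2 (SE 0.14, 95% interval -0.42 to 0.17, edgeR adjusted p = 0.528), where 27.0% of all domains were called lower and the 20 other controls ran from -0.25 to 0.57. With total counts the tile stood at 0.37 and was called higher (edgeR adjusted p = 0.0147), and with TMM over all members at 0.43 (adjusted p = 0.0188). The medians of the other controls were then 0.47 and 0.53. The tile stood 0.10 below them, a distance that scaling cannot change. Of 38 control pairs none was called (1 at an unadjusted p of 0.05, and 0 by DESeq2), and mean scores were 0.04 and 0.07 (0.06 ± 0.02, SD, n = 2). Both screens used the same reporter line, and the change from repression to memory was 1.25 (SE 0.19, 95% interval 0.83 to 1.67, edgeR adjusted p = 7.77e-05), with 49.0% of all domains called higher in that test. With total counts it was -0.17 (adjusted p = 0.353) and with TMM over all members -0.20 (adjusted p = 0.376), so the direction turned and the call was lost. Without replicate 2 it was 1.08 and not called (adjusted p = 0.0559), and without replicate 1 it was 1.42 (adjusted p = 0.0114). None of the 20 other controls was called in the change (edgeR, 0 at an unadjusted p of 0.05).

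Among tile 31 members, 5 of 191 were called lower in memory by edgeR, against 6.92% of all members, and none higher (2 at an unadjusted p of 0.05, and 3 by DESeq2), against 0.257%. These were both orders with KRAB variants P21506 and M0QYP0 and the pair ENSG00000100307 tile 18 + tile 31. KRAB domains recruit the corepressor TRIM28. The count of 5 rests on both replicates and on the tool. Leaving out either replicate leaves 1 library per memory fraction. The calls were then lost, but calls lower over all members fell as well, so the loss is no result about tile 31. With no replicate block 3 tile 31 members were called lower, against 664 of all 9337 members. DESeq2 called 14 lower and 3 higher, against 1286 and 151 of all members. Variant P21506 scored -2.66 and -1.69 behind the tile and -2.31 and -1.28 in front of it, where its baselines with other controls were -2.21 and -2.10. By partner class, median swap differences in memory were -0.06 with controls and with neither class, -0.11 with activating, -0.27 with dual and 0.26 with silencing partners. No swap difference was called in memory, for tile 31 or for any of the 18450 tested (0%). At an unadjusted p of 0.05 limma gave 4 lower and 5 higher for tile 31. Scores of single members varied widely between replicates here, as WBP4 WW + tile 31 shows with 4.50 and -0.26. Over 190 members, replicate scores had r = 0.17 in memory, 0.72 in repression and 0.88 over 193 members in activation.

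No position difference of tile 31 was called. The mean score with control partners in the first position minus that in the second was 0.34 and 0.24 in activation (0.29 ± 0.07, SD, n = 2). In repression it was -0.08 and -0.46 (-0.27, SE 0.18, limma adjusted p = 0.518), and 0 of 99 domains were called (10 at an unadjusted p of 0.05). In memory it was -0.25 and -0.09 (-0.17, SE 0.36, limma adjusted p = 0.967), where 9.09% of domains were called. First and second positions beside the same partner had r = 0.88 over 94 partners in activation, 0.80 over 91 in repression and 0.21 over 91 in memory. These values include the partners' own effects. With control partners alone, r was 0.72 over 20 in activation, 0.69 over 19 in repression and -0.37 over 18 in memory.

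Set beside the 6 dual domains, tile 31 had a smaller activation value than 5 of them, and its repression value lay within theirs, which ran from FOXO3 as the lowest to ZN473 at -1.21. MYBA LMSTEN stood at 4.45 in activation, -1.37 in repression and -0.05 in memory. NCOA2 stood at 4.02, -1.33 and -0.01 in the same order, and SMCA2 QLQ at 1.12, -1.36 and -0.19. Tile 31, at 2.14, -1.37 and -0.13, lay between SMCA2 and the others in activation. These effects share the same control partners, and differences between the domains were not tested.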

How the data were processed

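The values were deposited counts of read pairs per ordered domain pair in 12 libraries. Per the labels, reads of 150 cycles came from genomic DNA after 33 PCR cycles, 30 bases were trimmed from each end, and each position was aligned separately. The submitters' processing notes name Bowtie2 and hg38; the sources used here give no version. No molecular identifiers are stated, so errors cover counting and the spread of 2 replicates only.

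Counts of each domain were summed over pairs with the 20 other controls and tested with edgeR 4.0.16 (R 4.3.3, quasi-likelihood) over 100 domains. One fit held the 12 libraries and took each screen and replicate as a block, because both fractions come from the same culture. Libraries were scaled by TMM over control pairs without tile 31. Single members were tested in the same way. Swap and position differences were tested with limma 3.58.1, and DESeq2 1.42.0 was an alternative. Adjusted p-values (Benjamini-Hochberg over all features) up to 0.05 were called. The labels speak of 6 repressors discarded for design errors without naming them, so all 100 domains were kept. The 23 silencer tiles keep the identifiers of the files, since none matched a RefSeq symbol. Tables were prepared with Python 3.11.15, pandas 2.3.3, numpy 2.4.6 and scipy 1.17.1, and the tests were tried on simulated data.

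The members and lists were chosen with earlier results of these data known. By rule any control could be named, as could the 5 highest and 5 lowest members per screen, up to 8 called members and up to 5 called swap differences in each direction, and leading partners of each class. Members given beyond that rule were chosen after their values were seen.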

Additional observations from a re-analysis of the deposited data

Results flagged for a closer look

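The effect of tile 31 with control partners differed between the 2 screens on the same reporter line. It was higher by 1.25 in log2 after 5 days without doxycycline than at the end of 5 days with it, by an edgeR test of the difference itself with libraries scaled on control pairs. It was -0.17 with total counts and -0.20 with TMM over all members, neither called, and it was not called without replicate 2 (1.08, edgeR adjusted p = 0.0559). Groups of 2 replicates were too small to look for a library far from the others.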

How the results depend on the processing

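Scaling set the sign of the tile's effects in repression and memory and of the change between them. With TMM over all members the effects were 0.63 in repression and 0.43 in memory and the change was -0.20, and with total counts 0.54, 0.37 and -0.17. Under both, the repression and memory effects were called higher and the change was not called. The edgeR adjusted p in repression was 0.000494 with TMM over all members and 0.00064 with total counts. These scalings move the other controls as well, so they are not relative to controls. Activation stayed positive, at 2.07 with TMM over all members and 1.00 with total counts. Members called lower in repression numbered 68 with TMM over all members and 69 with total counts, against 2764 and 2812 of all members. In memory 0 were called lower with both, against 229 and 214 of all members. With no replicate block, 3 members were called lower in memory and 149 in repression, against 664 and 5263 of all members. The effects were then -1.37 in repression and -0.13 in memory. DESeq2 called 14 lower in memory, against 1286 of all members. Leaving out 1 replicate gave a change of 1.08 to 1.42. The tile 31 members called lower in memory were then lost, and calls lower over all members fell as well. Other alternatives, including those chosen after seeing the data (without DMD tile 130 as a partner, and without pairs of the same domain in the reference), changed no call of an effect with control partners. Leaving out a replicate was not run for swap differences, which then have no residual degrees of freedom. Among the partner classes, bound counts in repression were lowest beside silencing partners, with medians of 463 and 123 reads. Among the libraries, the unbound activation library of replicate 2 was lowest, with a median of 29 reads per tile 31 member.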

Other observations

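The 4 controls with the lowest activation averages beside tile 31 also had negative median values beside the 11 activating and dual domains. The comparison was with other controls in their place, and medians over the 20 controls lay on both sides of 0. They ran up to 1.33 (random control 411). These 4 were the lowest, followed by random control 205 at -0.85, which averaged 1.78 beside tile 31. The median swap difference was -1.39 for random control 89, with 21 of 22 pairs negative in both replicates, -1.38 for DMD tile 130, -1.16 for DMD tile 297 and -0.98 for random control 257. Beside silencing domains their median swap differences in repression were 2.56, 1.30, 1.01 and 0.04 in the same order. Over all 20 controls, the mean activation score with tile 31 and the median swap difference beside activating and dual domains had r = 0.90 and rho = 0.86. In repression, the mean score with tile 31 and the median swap difference beside silencing domains had r = 0.62 and rho = 0.59. These are descriptions of 20 controls that share libraries.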
